A study of Mus musculus with 18 samples.

Results

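The genes described here take part in branched-chain amino acid breakdown and in the handling of alanine, glutamate and glutamine: Bcat1, Bcat2, Bckdha, Bckdhb, Dbt, Bckdk, Gpt, Gpt2, Glud1 and Glul. They were chosen by name, as the probe sets whose gene symbol in the array annotation was 1 of these 10, out of 19938 genes measured. Where a gene had several probe sets the brightest over all arrays was used, which concerned only Glul, so that 11 probe sets gave 10 genes. All 10 lay above the level below which genes were left out of the tests, both in muscle and in heart.

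Gene expression was measured on 18 whole-transcript arrays of mouse tissue, 3 for each of 6 groups, and the labels call the replicates of a group biological. The mice were back-crossed to C57BL/6. KO soleus and KO quadriceps came from mice with a floxed EglN1 gene and a tamoxifen-inducible Cre recombinase of skeletal muscle; WT soleus and WT quadriceps came from mice with the same recombinase and a wild-type EglN1 gene. Mice of both genotypes were given tamoxifen for 3 days before the muscles were taken. EglN1 is the prolyl hydroxylase that marks the hypoxia-inducible factors for degradation in the presence of oxygen. In a related experiment, hearts came from EglN1 WT mice given either vehicle or FG-4497, which inhibits the EglN enzymes, in an intraperitoneal dose of 50 mg per kg. The labels name no Cre recombinase and no tamoxifen for the heart mice, and give neither the time after FG-4497 nor any ages. Soleus and quadriceps came from 6 mice, 3 of each genotype, taking numbers that head the muscle descriptions as those of the animals.

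Skeletal muscle is a main site at which leucine, isoleucine and valine lose their amino group. Branched-chain aminotransferase passes that group to alpha-ketoglutarate, which becomes glutamate. Alanine aminotransferase then passes it from glutamate to pyruvate, which becomes alanine, and glutamine synthetase joins ammonia to glutamate to form glutamine. Muscle releases alanine and glutamine to the blood. The remaining branched-chain keto acids are oxidised by the mitochondrial branched-chain keto acid dehydrogenase (BCKD) complex, which a dedicated kinase switches off by phosphorylation.

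Levels are given on the log2 scale of the robust multi-array average (RMA), where a difference of 1 is a doubling, and no level of a gene is set against that of another gene. The 18 array medians ranged from 6.68 to 6.81, and r over all probe sets was 0.986 to 0.995 within groups. The log2 difference of Egln1, KO minus WT, was -0.20 in soleus and -0.14 in quadriceps (limma, adjusted p = 0.438 and 0.470). In each muscle the KO arrays were all lower than the WT arrays, but what was deleted is not stated in the labels, so this is a limited check of the genotype. The markers of the labelled tissues were present: the mean of 8 slow fibre genes was 13.47 to 13.55 in soleus and 7.32 to 9.48 in quadriceps. The mean of 7 cardiomyocyte genes was 12.51 to 12.66 in heart and 7.64 to 8.23 in skeletal muscle. In whole tissue, fewer cells of a type and less RNA per cell cannot be told apart.

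The 10 genes differed in how far their group means lay apart, over tissue, genotype and FG-4497 together. The spread of the 6 group means was widest for Gpt2, with 2.26 on the log2 scale between the highest and the lowest group, followed by Dbt with 1.44, Bckdha with 1.24 and Glul with 1.17. It was narrowest for Bcat1, with 0.43 between WT quadriceps and FG-4497 heart, where vehicle heart minus WT quadriceps was 0.19. The group means of Bcat1, 6.26 to 6.70, lay near the level below which genes were left out (6.19 in muscle, 6.26 in heart). For Dbt the lowest group was KO quadriceps, and vehicle heart minus WT quadriceps was 1.16. The largest SD within a group of 3 arrays was 0.35, for Bckdhb in KO quadriceps.

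**Figure D1:**
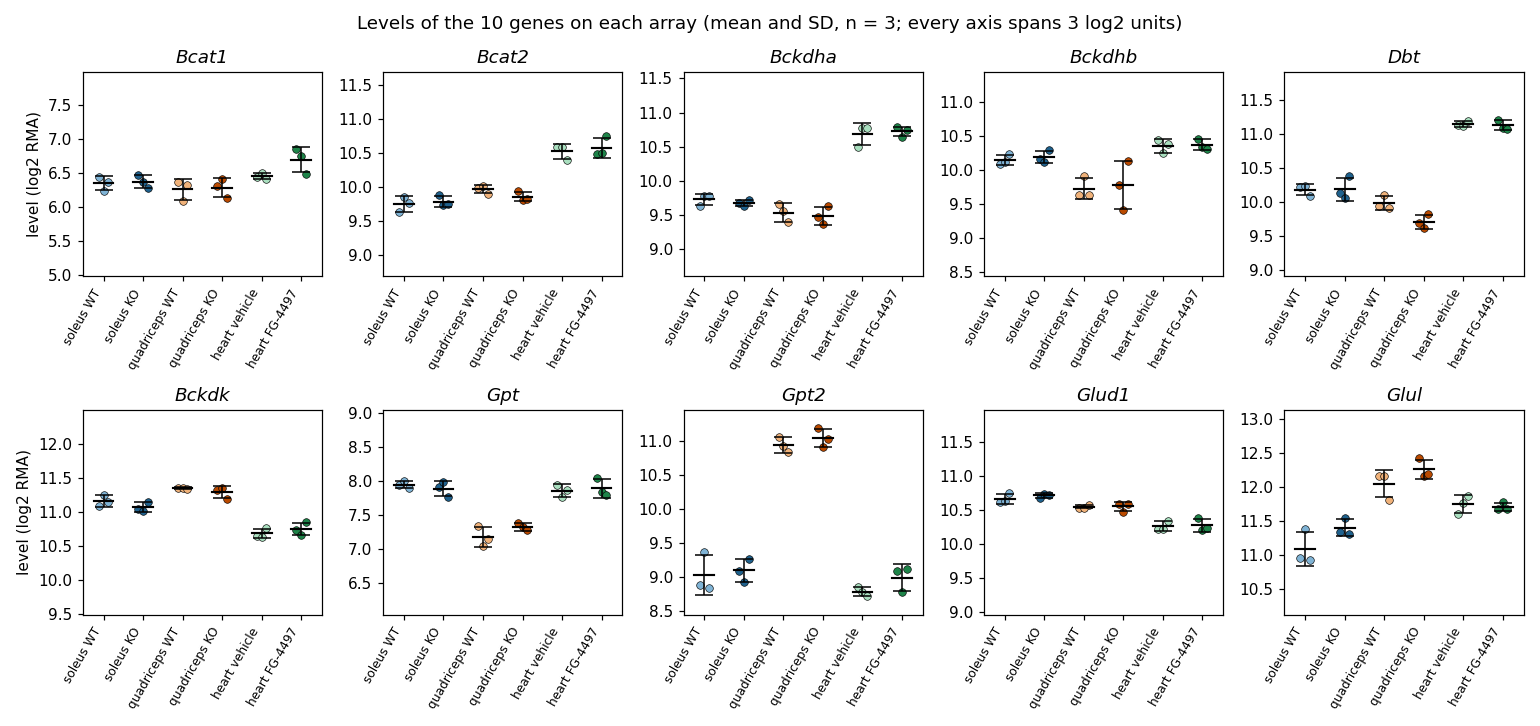
The level of each gene (log2 RMA, vertical axis) on each of the 18 arrays, by group along the horizontal axis; points are arrays, horizontal bars are group means and error bars are the SD over 3 arrays. Gpt2 stands near 11 in both quadriceps groups and near 9 in soleus and heart, whereas Bckdha and Dbt are highest in heart. Bcat1 is nearly flat and lies near the level below which genes were left out of the tests.

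The aminotransferases for branched-chain amino acids were described first. Bcat2, the mitochondrial enzyme and the main form in muscle, measured 10.58, 10.59 and 10.39 in vehicle heart and 10.48, 10.50 and 10.74 with FG-4497. In WT quadriceps it measured 9.99, 10.01 and 9.90 and in WT soleus 9.63, 9.85 and 9.76. The order of the groups was therefore heart, quadriceps and soleus, with a gap between heart and muscle and overlapping ranges between each pair of neighbours below it. Bcat1, the cytosolic form, lay between 6.08 and 6.85 on all 18 arrays, and the ranges of all neighbouring groups in its order overlapped.

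Bckdha and Dbt, which encode parts of the BCKD complex, were highest in heart. Bckdha, the alpha subunit of its decarboxylase, measured 10.50, 10.77 and 10.78 in vehicle heart, 9.63, 9.77 and 9.78 in WT soleus and 9.65, 9.56 and 9.39 in WT quadriceps. Dbt, the transacylase that forms the core of the complex, measured 11.12, 11.12 and 11.19 in vehicle heart, 10.22, 10.22 and 10.08 in WT soleus and 9.94, 10.09 and 9.90 in WT quadriceps. For both genes all 6 heart arrays lay above all 12 muscle arrays. Bckdhb, the beta subunit of the decarboxylase, had the same order of tissue means, and the ranges of neighbouring groups overlapped throughout.

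Bckdk, the kinase that phosphorylates Bckdha and so inactivates the complex, had the opposite order. It measured 11.36, 11.35 and 11.34 in WT quadriceps, 11.08, 11.25 and 11.14 in WT soleus and 10.65, 10.64 and 10.77 in vehicle heart. All muscle arrays lay above all heart arrays.

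The 2 alanine aminotransferases had opposite patterns between the muscles. Gpt2, the mitochondrial form, measured 11.06, 10.91 and 10.84 in WT quadriceps, 8.88, 9.36 and 8.84 in WT soleus and 8.85, 8.78 and 8.72 in vehicle heart. Every quadriceps array of either genotype lay above every soleus and heart array. Gpt, the cytosolic form, measured 7.34, 7.05 and 7.14 in WT quadriceps, 7.94, 7.999 and 7.89 in WT soleus and 7.94, 7.76 and 7.87 in vehicle heart. Every quadriceps array lay below every soleus and heart array.

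Glul, glutamine synthetase, measured 12.16, 12.16 and 11.82 in WT quadriceps, 11.60, 11.77 and 11.87 in vehicle heart and 10.95, 11.38 and 10.93 in WT soleus. Soleus lay below all other groups without overlap, while WT quadriceps and vehicle heart overlapped. The second probe set of Glul gave means of 11.70 ± 0.19, 11.42 ± 0.06 and 10.69 ± 0.29 (SD, n = 3) for WT quadriceps, vehicle heart and WT soleus, which is the same order. The brightest probe set, which gives every value of Glul unless the second is named, has an identifier that falls among those of genes on another chromosome than Glul, whereas the identifier of the second falls among those of neighbours of Glul. Whether the brightest reads a copy of Glul was not tested. Glud1, glutamate dehydrogenase, measured 10.62, 10.63 and 10.75 in WT soleus, 10.54, 10.53 and 10.58 in WT quadriceps and 10.22, 10.21 and 10.34 in vehicle heart, so that soleus, quadriceps and heart followed each other without overlap.

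Gpt2, Glul and Bckdk had their highest means in quadriceps, and the 250 bases before their annotated starts are shown for that reason. They come from RefSeq promoter windows on GRCm38.p6, in which 8 of the 10 genes had 11 windows; Dbt and Gpt were not among them. The strand is plus for all 3, the windows are chr8:85492326-85492575 for Gpt2, chr1:153899679-153899928 for Glul and chr7:127903823-127904072 for Bckdk, and capitals mark the E-box CAGCTG.
Gpt2: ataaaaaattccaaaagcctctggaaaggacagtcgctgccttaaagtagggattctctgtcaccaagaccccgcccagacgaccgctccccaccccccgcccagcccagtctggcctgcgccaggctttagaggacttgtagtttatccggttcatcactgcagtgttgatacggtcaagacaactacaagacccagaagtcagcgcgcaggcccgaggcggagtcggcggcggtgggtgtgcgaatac
Glul: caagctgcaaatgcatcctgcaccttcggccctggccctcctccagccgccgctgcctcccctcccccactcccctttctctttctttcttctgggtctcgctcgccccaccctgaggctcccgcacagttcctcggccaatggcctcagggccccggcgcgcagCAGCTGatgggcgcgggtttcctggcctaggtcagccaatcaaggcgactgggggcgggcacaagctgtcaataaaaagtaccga
Bckdk: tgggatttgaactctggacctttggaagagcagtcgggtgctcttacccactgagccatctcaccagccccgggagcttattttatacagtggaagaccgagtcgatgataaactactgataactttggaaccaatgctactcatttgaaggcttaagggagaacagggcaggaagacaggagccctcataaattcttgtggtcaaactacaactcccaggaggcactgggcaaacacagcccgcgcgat

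The windows were searched on both strands for CAGCTG, an E-box that myogenic factors can bind, for ACGTG and GCGTG, cores of the hypoxia response element, and for AAGGTCA, a half-site of the estrogen-related receptors. CAGCTG lay 85 bases before the start of Glul, and the windows of Gpt2 and Bckdk held none of the 4 letter strings. CAGCTG was in 3 of the 11 windows of the 8 genes and in 4271 of 32851 windows in all. ACGTG was in 3 of 11 against 16.6%, GCGTG in 3 of 11 against 28.2% and AAGGTCA in 0 of 11 against 4.1%. These are letter matches in a window and not measured sites.

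The first comparison asked how soleus, a slow postural muscle, differed from quadriceps, a mostly fast muscle, in WT mice. Gpt2 was 3.75-fold lower in soleus (log2 difference -1.91, SE 0.12, limma adjusted p = 3.05e-08) and Glul 1.94-fold lower (-0.96, SE 0.12, adjusted p = 2.20e-05). Gpt was 1.70-fold higher (0.77, SE 0.07, adjusted p = 1.70e-06). Of the BCKD genes, Bckdhb was 1.34-fold higher in soleus (0.42, SE 0.12, adjusted p = 0.0132) and Bckdha 1.14-fold higher (0.19, SE 0.07, adjusted p = 0.0445), while Bckdk was 1.14-fold lower (-0.19, SE 0.06, adjusted p = 0.0216) and Bcat2 1.16-fold lower (-0.22, SE 0.06, adjusted p = 0.0110). With 7 of 10 genes past an adjusted p of 0.05, the share stands beside 45.7% of all 13318 genes tested between these muscles. Higher in soleus were 3 members, beside 21.3% of all genes, and lower were 4, beside 24.4%. Groups did not overlap for 7 of 10 members and for 53.0% of all genes. The median over the 10 genes was 0.10, against -0.01 over all genes tested.

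Not past the threshold were Dbt (log2 difference 0.19, SE 0.08, adjusted p = 0.0639), Glud1 (0.12, SE 0.05, adjusted p = 0.102) and Bcat1 (0.09, SE 0.09, adjusted p = 0.446). The smaller calls depended on single arrays. Bcat2 had an adjusted p of 0.0716 without WT soleus array 1, and Bckdhb of 0.0525 and 0.0594 without WT quadriceps array 1 or 3. Bckdk had 0.105, 0.0673, 0.0588 and 0.0584 without WT soleus array 1 or 3 or WT quadriceps array 2 or 3. Bckdha had 0.110, 0.135, 0.0835 and 0.224 without WT soleus array 2 or 3 or WT quadriceps array 2 or 3, and 0.106 with the number in the titles as a block. It also failed with no animal block (0.0791), without the filter on low genes (0.0785) and with only the arrays compared (0.0516); the labels do not state that the numbers of the block are animals. Dbt passed without WT soleus array 3 (adjusted p = 0.0399) or WT quadriceps array 2 (0.0299). It also passed with repeated quantile normalization (0.0403), a trended and robust prior (0.0451), array weights (0.0310) and only the arrays compared (0.0452). Glud1 passed with repeated quantile normalization (0.0455). Without WT quadriceps array 3, 4 of the 10 genes passed.

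The KO muscles were compared in the same way, from different arrays of different mice. Both comparisons came from the same fit, with a shared estimate of spread for each gene, so they are not independent tests. Gpt2 was 3.84-fold lower in soleus than in quadriceps (log2 difference -1.94, SE 0.12, limma adjusted p = 3.42e-08), Glul 1.81-fold lower (-0.86, SE 0.12, adjusted p = 6.94e-05) and Bckdk 1.16-fold lower (-0.22, SE 0.06, adjusted p = 0.0114). Gpt was 1.48-fold higher (0.56, SE 0.07, adjusted p = 3.29e-05), Dbt 1.39-fold higher (0.48, SE 0.08, adjusted p = 0.000346), Bckdhb 1.33-fold higher (0.41, SE 0.12, adjusted p = 0.0160) and Glud1 1.12-fold higher (0.16, SE 0.05, adjusted p = 0.0305). Thus 7 of 10 genes passed, beside 41.9% of all genes (21.9% higher and 20.0% lower), and 7 of 10 did not overlap, beside 46.6%. Bckdha (0.19, adjusted p = 0.0520), Bcat2 (-0.07, adjusted p = 0.380) and Bcat1 (0.09, adjusted p = 0.456) did not pass.

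Of the 7 genes called in each genotype, 5 were shared and had the same direction, which is 71.4% of each list: Gpt2, Glul and Bckdk lower and Gpt and Bckdhb higher in soleus. Over all genes, 4702 were shared, 77.2% of the WT calls and 84.3% of the KO calls. All 10 members had the same sign in both genotypes, as had 83.7% of all genes. Without KO quadriceps array 2, 4 of the 10 genes passed in the KO comparison; Bckdhb then had an adjusted p of 0.0897, Bckdk of 0.0574 and Glud1 of 0.143. Calls were also lost without KO soleus array 2 for Bckdk (adjusted p = 0.0568) and Glud1 (0.112), and without KO soleus array 3 for Bckdhb (0.0509) and Glud1 (0.0714). Glud1 also failed without the filter on low genes (adjusted p = 0.0626), with array weights (0.0557) and with only the arrays compared (0.0706). Bckdha passed without KO quadriceps array 3 (0.0181), with repeated quantile normalization (0.0300) and with a trended and robust prior (0.0379).

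**Figure D2:**
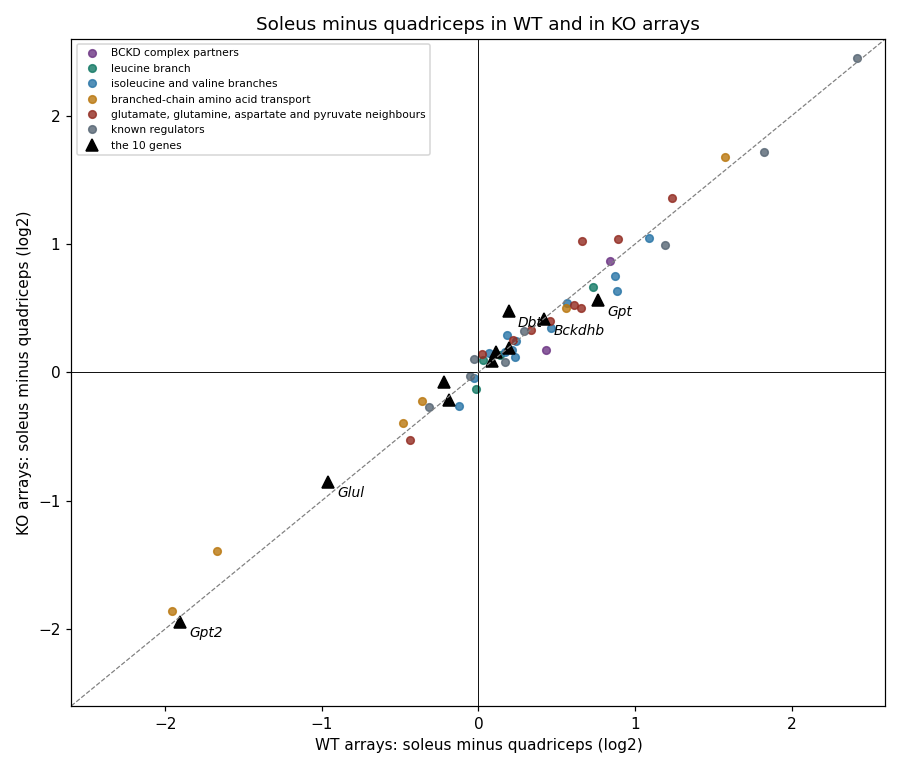
Log2 difference of soleus minus quadriceps in WT arrays (horizontal axis) and in KO arrays (vertical axis) for the 10 genes (triangles) and for 43 other genes of the pathway, coloured by list; the dashed line marks equal differences. Gpt2 lies at -1.91 and -1.94, and all 10 triangles lie on the same side of 0 on both axes.

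Among the soleus arrays Gpt2 had the order of Myh4, 1 of the 9 listed fast fibre genes. The order of these arrays by each of the other fast fibre genes is not given. Ordered by Myh4, the myosin of the fastest fibres, the 6 soleus arrays read 8.99, 10.90, 12.48, 12.53, 12.73 and 13.31, and the same arrays in the same order read 8.84, 8.88, 8.93, 9.09, 9.26 and 9.36 for Gpt2. The highest of them, WT array 2, was also the highest WT soleus array for Glul, at 11.38 against 10.95 and 10.93. By the mean of the 9 fast fibre genes, soleus KO array 1 (12.94) stood above KO array 3 (12.88), whereas their Gpt2 read 9.09 and 9.26. In quadriceps, Myh4 lay between 13.98 and 14.12 and Gpt2 between 10.84 and 11.18, so that Gpt2 was over 1 log2 unit higher there than in soleus WT array 2, whose Myh4 was 13.31. Gpt2 did not have the order of Myh4 there: KO array 2, the highest for Myh4, read 10.91 and WT array 1, the lowest, read 11.06. The part of fibre composition in the difference between muscles cannot be told apart from the muscle itself, since the slow fibre means of soleus and quadriceps did not overlap. With that mean as a covariate, a setting chosen after seeing the data, 0 of the 10 genes passed in either genotype; Gpt2 was then estimated at -1.63 in WT and -1.69 in KO (adjusted p = 0.207 and 0.145).

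**Figure D3:**
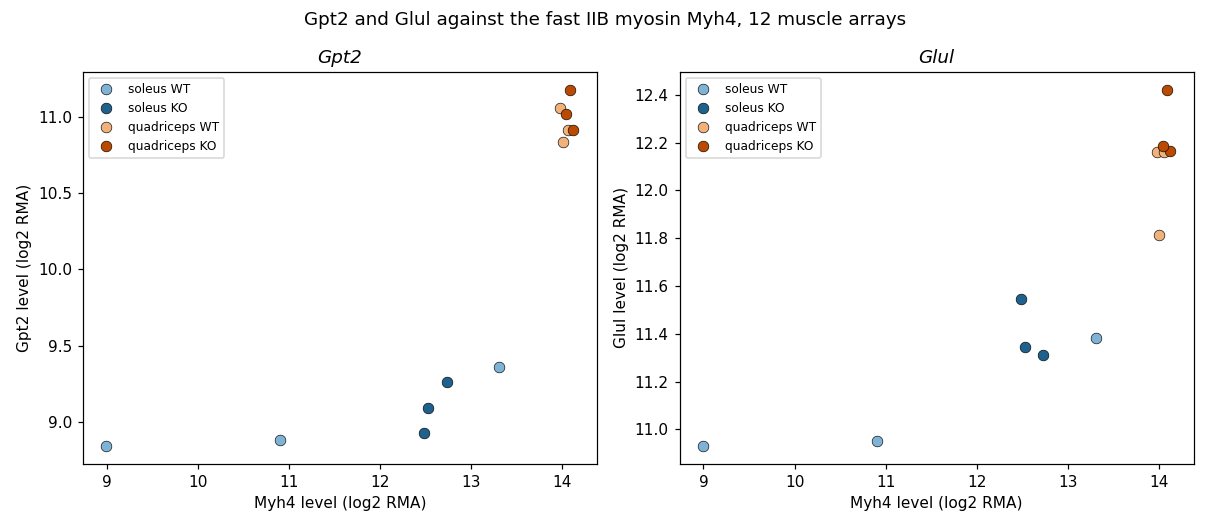
Levels (log2 RMA) of Gpt2 (left) and Glul (right) against the level of Myh4 on the 12 muscle arrays; each point is an array, coloured by group. In soleus Gpt2 runs from 8.84 to 9.36 in the order of Myh4, and the 6 quadriceps arrays form a separate group at the upper right.

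The next comparisons asked what loss of EglN1 in skeletal muscle changed. In soleus, 0 of the 10 genes passed the test (limma, adjusted p between 0.614 and 0.993), beside 0.180% of all genes tested, and the groups overlapped for all 10, whereas they did not for 12.2% of all genes. The median difference over the 10 genes was 0.03 against 0.00 over all genes. At an unadjusted p under 0.05 there was 1 of the 10, Glul, beside 7.23% of all genes. Glul measured 11.34, 11.55 and 11.31 in KO soleus and 10.95, 11.38 and 10.93 in WT soleus, where WT array 2 lay inside the KO range. The difference was 0.31 (SE 0.13, adjusted p = 0.614). The second probe set read 11.02, 11.09 and 10.97 in KO and 10.57, 11.02 and 10.48 in WT, with the same WT array inside the KO range.

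Markers of fast fibres and of fat are given beside Glul in soleus. The mean of the 9 fast fibre genes was 12.94, 12.81 and 12.88 in KO soleus and 12.55, 13.19 and 12.04 in WT soleus. The mean of 5 measured adipocyte genes was 9.24, 8.96 and 8.57 in KO and 8.35, 9.29 and 8.32 in WT. WT array 2 was the highest WT array in both, as for Glul. Among the KO arrays, array 2 was the highest for Glul but the lowest for the fast fibre mean, and array 1 was the highest for the adipocyte mean. None of the 9 fast fibre genes or the 5 tested adipocyte genes passed the test between KO and WT. With the fast fibre mean as a covariate, chosen after seeing the data, the difference of Glul was 0.21 (adjusted p = 0.805). The part of the adipocyte markers was not tested.

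The other soleus differences lay between -0.09 for Bckdk and 0.06 for Gpt2. Gpt2 measured 9.09, 8.93 and 9.26 in KO soleus, and the 95% confidence interval of its difference from WT ran from -0.21 to 0.34 on the log2 scale. For the subunits of the BCKD complex these intervals ran from -0.22 to 0.12 for Bckdha, from -0.25 to 0.33 for Bckdhb and from -0.18 to 0.20 for Dbt.

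In quadriceps, 0 of the 10 genes passed (limma, adjusted p between 0.230 and 0.992), beside 0.683% of all genes. The lowest adjusted p was that of Dbt, which measured 9.69, 9.62 and 9.81 in KO and 9.94, 10.09 and 9.90 in WT. All KO arrays lay below all WT arrays, by a mean difference of -0.27 (SE 0.09, adjusted p = 0.230; 0.140 to 0.5002 over 16 alternatives). It was the only member with an unadjusted p under 0.05, beside 11.6% of all genes. Glul measured 12.42, 12.16 and 12.19 in KO and 12.16, 12.16 and 11.82 in WT, a difference of 0.21 (SE 0.13, adjusted p = 0.595). Its groups did not overlap, but KO array 2 and WT arrays 1 and 2 agree to 2 decimals. The second probe set read 11.98, 11.88 and 11.78 in KO and 11.92, 11.62 and 11.56 in WT, and there the groups overlapped. Groups did not overlap for these 2 of 10 genes and for 16.5% of all genes. KO quadriceps array 2 had the highest slow fibre mean, 9.48, and the other quadriceps arrays 7.32 to 8.67; KO array 2 was also the lowest for Dbt and for Bckdhb, at 9.42. Without KO array 2 the difference of Dbt was -0.23 (adjusted p = 0.421), and with the slow fibre mean as a covariate it was -0.26 (adjusted p = 0.333). WT quadriceps array 2, the highest for Dbt, also had the highest cardiomyocyte mean, 8.23 against 7.71 and 7.72 in WT and 7.64 to 7.77 in KO. Of the cardiomyocyte genes, 6 were tested between KO and WT quadriceps and 0 passed (limma). The largest differences were those of the cardiac troponins Tnni3 and Tnnt2, -0.43 and -0.36 (SE 0.28 for both, adjusted p = 0.628 and 0.695). Myh6, Myl7 and Nppa differed by -0.22, -0.12 and -0.09, and Actc1 by 0.08. Without WT array 2 the difference of Dbt was -0.21 (adjusted p = 0.5002).

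The difference between the muscles in the effect of KO was tested as an interaction. It passed for 0 of the 10 genes and for 0% of all genes (limma), and at an unadjusted p under 0.05 for 1 of the 10, Dbt, beside 6.41% of all genes. Dbt differed by 0.01 (SE 0.09) in soleus and by -0.27 in quadriceps, and the difference of these was 0.28 (SE 0.11, adjusted p = 0.739).

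Of 43 measured genes around the pathway, 0 passed in either KO comparison (limma), beside 0.180% of all genes in soleus and 0.683% in quadriceps. Asns, asparagine synthetase, which uses glutamine as its amino donor, had the largest difference in both: 8.43, 8.66 and 7.84 in KO soleus against 7.85, 7.84 and 7.85 in WT (0.47, SE 0.18, adjusted p = 0.567), and 7.83, 8.14 and 7.41 in KO quadriceps against 7.17, 7.41 and 7.14 in WT (0.55, SE 0.18, adjusted p = 0.236). In soleus KO array 3 was within the WT range, while KO arrays 1 and 2 lay above it. Slc7a8, a carrier of large neutral amino acids, differed by 0.36 in soleus (SE 0.13, adjusted p = 0.522), and Slc7a5, the light chain of another such carrier, by 0.30 in quadriceps (SE 0.11, adjusted p = 0.330). In soleus the largest differences of the other lists were -0.14 for Dld, 0.12 for Auh, -0.12 for Acadsb and -0.17 for Ppargc1a (adjusted p = 0.609 to 0.892). In quadriceps they were -0.13 for Ppm1k, 0.23 for Auh, 0.20 for Echs1 and 0.25 for Ppara (adjusted p = 0.300 to 0.720). For the interaction 0 of 43 passed, beside 0% of all genes. The largest difference of each list was -0.26 for Dld, -0.11 for Auh, -0.25 for Echs1, 0.28 for Slc43a1, 0.36 for Slc38a2 and -0.20 for Ppargc1a (adjusted p = 0.569 to 0.957).

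In heart, the question was what FG-4497 changed. For the 10 genes, 0 passed (limma, adjusted p between 0.385 and 0.992), beside 1.77% of all 13431 genes tested. Bcat1 measured 6.85, 6.75 and 6.49 with FG-4497 and 6.44, 6.50 and 6.41 with vehicle, a difference of 0.25 (SE 0.10, adjusted p = 0.385), with array 3 of the treated hearts inside the vehicle range. It was the only member with an unadjusted p under 0.05, beside 10.6% of all genes. Gpt2 measured 9.08, 8.77 and 9.12 with FG-4497 and 8.85, 8.78 and 8.72 with vehicle (0.21, SE 0.10, adjusted p = 0.547). The groups overlapped for all 10 genes, and did not for 15.5% of all genes. The other 8 differences lay between -0.04 and 0.07.

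Of the 43 pathway genes, 1 passed with FG-4497, beside 1.77% of all genes tested. Slc38a2, a sodium-coupled carrier of alanine and glutamine, measured 12.81, 12.87 and 12.78 with FG-4497 and 11.980, 12.001 and 11.999 with vehicle, with no overlap (0.83, SE 0.08, adjusted p = 0.000215). In KO muscle its differences were 0.01 in soleus and -0.35 in quadriceps, and neither passed. Markers of red cells are given beside it: the mean of 2 measured erythroid genes was 8.49, 8.90 and 8.63 with FG-4497 and 7.85, 8.18 and 7.92 with vehicle, also with no overlap. Of these, Alas2, the heme synthesis enzyme of red cells, was 0.96 higher (SE 0.15, adjusted p = 0.00799), and Slc4a1, their anion exchanger, differed by 0.42 (SE 0.12, adjusted p = 0.133). In the other marker lists 0 genes passed (limma). The lowest adjusted p among them was that of the endothelial gene Vwf (0.51, adjusted p = 0.0512), while the median of the 6 endothelial genes was -0.01. The part of the erythroid and other markers was not tested. Slc7a5 differed by 0.35 in the treated hearts (SE 0.10, adjusted p = 0.120). The largest differences of the other lists were -0.21 for Ppm1k, 0.09 for Mccc1, -0.15 for Echs1 and 0.19 for Klf15 (adjusted p = 0.414 to 0.840). Over the 43 genes the median difference was 0.01.

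**Figure D4:**
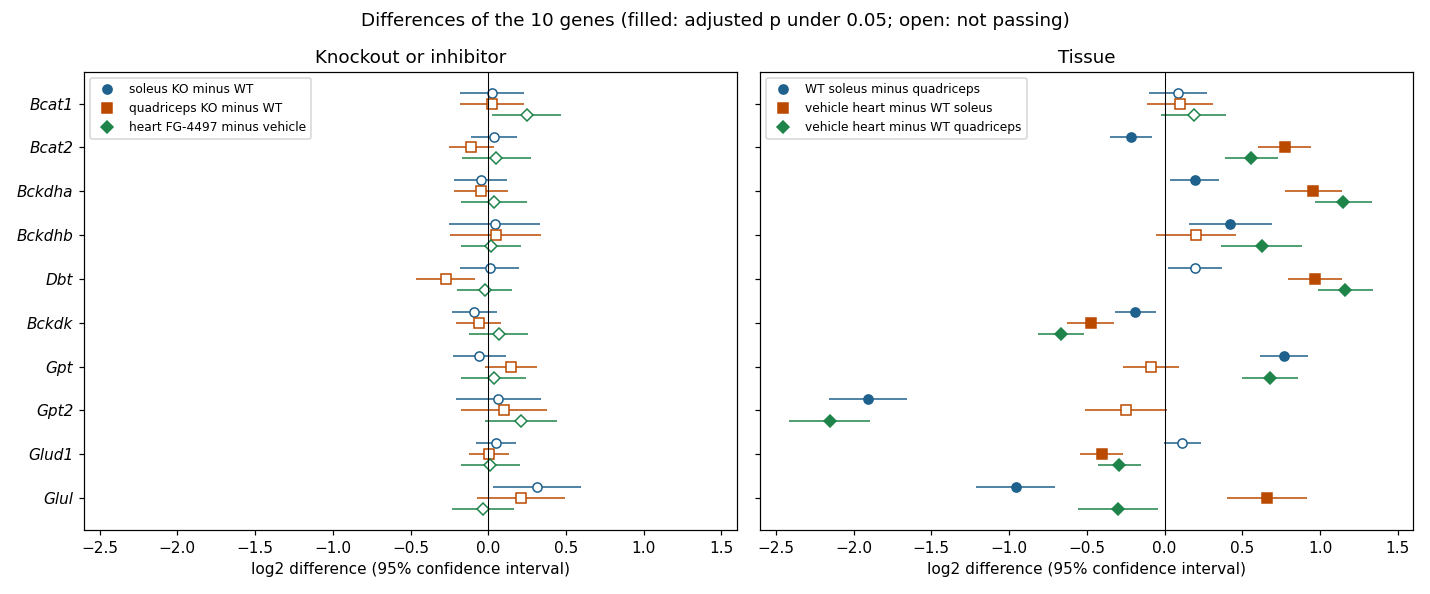
Log2 difference with its 95% confidence interval (horizontal axis) for each of the 10 genes, on the left for KO minus WT in both muscles and for FG-4497 minus vehicle in heart, on the right for soleus minus quadriceps and for heart minus each muscle; filled symbols passed an adjusted p of 0.05. On the left every symbol is open, and on the right Gpt2 reaches -1.91 and -2.15.

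Vehicle heart was set against each WT muscle. The heart mice came from another experiment, without a stated Cre recombinase or tamoxifen, so that tissue, transgene, tamoxifen and experiment cannot be told apart in these values. Both comparisons share the same 3 heart arrays. Against WT soleus, Dbt was 1.96-fold higher in heart (log2 difference 0.97, SE 0.08, limma adjusted p = 1.55e-08), Bckdha 1.94-fold higher (0.96, SE 0.09, adjusted p = 3.42e-08), Bcat2 1.71-fold higher (0.77, SE 0.08, adjusted p = 2.30e-07) and Glul 1.58-fold higher (0.66, SE 0.12, adjusted p = 0.000146). Bckdk was 1.39-fold lower (-0.48, SE 0.07, adjusted p = 1.53e-05) and Glud1 1.32-fold lower (-0.41, SE 0.07, adjusted p = 3.84e-05). These are 6 of 10 genes, beside 56.8% of all 13373 genes tested (29.6% higher and 27.2% lower), and 7 of 10 did not overlap, beside 62.6%. Bckdhb (0.20, adjusted p = 0.170), Bcat1 (0.10, adjusted p = 0.411), Gpt (-0.09, adjusted p = 0.396) and Gpt2 (-0.25, adjusted p = 0.0991) did not pass; Gpt2 passed without WT soleus array 3 (adjusted p = 0.0418), and Bckdhb with repeated quantile normalization (0.0489) and with only the arrays compared (0.0486).

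Against WT quadriceps, Dbt was 2.24-fold higher in heart (log2 difference 1.16, SE 0.08, limma adjusted p = 7.33e-10) and Bckdha 2.22-fold higher (1.15, SE 0.09, adjusted p = 1.64e-09). Gpt (0.68, SE 0.08), Bckdhb (0.63, SE 0.12) and Bcat2 (0.56, SE 0.08) were also higher, each with an adjusted p of 0.000233 or less. Gpt2 was 4.45-fold lower (-2.15, SE 0.12, adjusted p = 4.18e-11), Bckdk 1.59-fold lower (-0.67, SE 0.07, adjusted p = 1.73e-07) and Glud1 1.22-fold lower (-0.29, SE 0.07, adjusted p = 0.000826). In all 9 of 10 genes passed, beside 63.1% of all genes (31.9% higher and 31.2% lower), and 9 of 10 did not overlap, beside 67.8%. Only Bcat1 did not pass (0.19, adjusted p = 0.110). Glul was 1.23-fold lower (-0.30, SE 0.12, adjusted p = 0.0388), the weakest of the calls. It was lost without WT quadriceps array 1 (adjusted p = 0.0995) or 2 (0.156) or vehicle heart array 1 (0.150) or 2 (0.0657), and with 3 other settings.

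Against both muscles, Dbt and Bckdha were thus higher in heart and Bckdk was lower. Ppm1k, the phosphatase that reverses the action of Bckdk, measured 10.30, 10.22 and 10.27 in vehicle heart, 9.09, 9.23 and 9.20 in WT soleus and 8.12, 8.57 and 8.32 in WT quadriceps. The ranges of the 3 tissues were separate. The differences were 1.09 against soleus (SE 0.10, limma adjusted p = 7.01e-08), 1.93 against quadriceps (SE 0.10, adjusted p = 1.62e-11) and 0.84 for soleus against quadriceps (SE 0.10, adjusted p = 1.43e-05). Dld, the dihydrolipoamide dehydrogenase that the complex shares with pyruvate dehydrogenase, was lower in heart than in soleus (-0.31, SE 0.07, adjusted p = 0.00130) and higher in soleus than in quadriceps (0.43, SE 0.05, adjusted p = 1.83e-05). In KO muscles Ppm1k was 0.87 (SE 0.10) and Dld 0.17 (SE 0.05, adjusted p = 0.0176) higher in soleus.

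Downstream of the complex, 4 genes of the leucine branch were measured, and all 4 were higher in heart than in either muscle (limma), beside 29.6% of all genes against soleus and 31.9% against quadriceps. Against soleus the differences were 0.75 for Auh, the hydratase of the branch, 0.72 for Mccc2 and 0.54 for Mccc1, the subunits of methylcrotonyl-CoA carboxylase, and 0.20 for Ivd, isovaleryl-CoA dehydrogenase. Against quadriceps they were between 0.68 and 0.93. Between WT soleus and quadriceps only Ivd passed (0.73, SE 0.06, adjusted p = 1.02e-06), while Auh, Mccc1 and Mccc2 differed by -0.02, 0.14 and 0.03. In KO muscles Ivd was 0.67 (SE 0.06) higher in soleus.

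Of 13 genes of the isoleucine and valine branches, 10 were higher and 0 lower in WT soleus than in WT quadriceps (limma), beside 21.3% and 24.4% of all genes. Examples were Abat, whose transaminase also acts on a valine breakdown product (1.09, SE 0.06), Echs1, enoyl-CoA hydratase (0.88, SE 0.07), Acat1, the thiolase that ends the isoleucine branch (0.87, SE 0.06), and Mcee, methylmalonyl-CoA epimerase (0.57, SE 0.05). In KO muscles 8 of the 13 were higher and 1 lower in soleus, beside 21.9% and 20.0% of all genes. Abat, Echs1, Acat1 and Mcee were there 1.05, 0.63, 0.75 and 0.54 higher in soleus. In heart 7 were higher and 1 lower than in soleus, beside 29.6% and 27.2% of all genes, led by Mmut, methylmalonyl-CoA mutase (0.70, SE 0.06), Pcca, a subunit of propionyl-CoA carboxylase (0.63, SE 0.07), and Acadsb, the dehydrogenase of the isoleucine branch (0.38, SE 0.07); Acad8, isobutyryl-CoA dehydrogenase, was the gene that was lower (-0.35, SE 0.07). Against quadriceps 11 of 13 were higher in heart and 0 lower, beside 31.9% and 31.2% of all genes, led by Abat (1.11), Echs1 (1.08), Acat1 (1.07) and Mmut (0.87).

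The carriers of branched-chain amino acids were divided. In WT soleus 2 of 6 were higher than in quadriceps and 4 were lower (limma), beside 21.3% and 24.4% of all genes. The higher ones were Slc43a2 (1.57, SE 0.11) and Slc7a5 (0.56, SE 0.10). The lower ones were Slc7a8 (-1.96, SE 0.12) and Slc43a1 (-1.67, SE 0.11), both carriers of large neutral amino acids at the cell surface, Slc25a44, the mitochondrial carrier of branched-chain amino acids (-0.48), and Slc3a2, the heavy chain of the Slc7 carriers (-0.36). In heart Slc43a1 (-2.72, SE 0.13), Slc7a8 (-2.30, SE 0.14) and Slc25a44 (-1.10, SE 0.08) were lower than in quadriceps, and Slc7a5 was higher (0.45, SE 0.11, adjusted p = 0.00168). Against soleus, Slc43a2 (-1.46), Slc43a1 (-1.06) and Slc25a44 (-0.62) were lower in heart. In KO muscles the differences of soleus from quadriceps were 1.68 for Slc43a2, 0.50 for Slc7a5, -1.86 for Slc7a8 and -1.39 for Slc43a1, and all 4 passed.

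Among the neighbouring genes of glutamate, glutamine, aspartate and pyruvate, 7 of 10 were higher and 1 lower in WT soleus than in WT quadriceps (limma), beside 21.3% and 24.4% of all genes. They included the glutamine carriers Slc38a1 (1.24, SE 0.12), Slc38a3 (0.89, SE 0.09) and Slc38a2 (0.66, SE 0.10) and Got1, the cytosolic aspartate aminotransferase (0.65, SE 0.05); Oat, ornithine aminotransferase, was lower (-0.44). In KO muscles 7 of these neighbouring genes were higher and 1 lower in soleus, beside 21.9% and 20.0% of all genes. Slc38a1 (1.36), Slc38a3 (1.04) and Slc38a2 (1.02) were likewise higher there and Oat lower (-0.53). Slc38a1 was also higher in heart than in soleus (0.91, SE 0.14) and quadriceps (2.15, SE 0.14). Of the neighbouring genes, 2 were higher and 3 lower in heart than in soleus, beside 29.6% and 27.2% of all genes. Slc38a3 (-0.81, SE 0.11) and Slc1a5, another glutamine carrier (-0.40, SE 0.15, adjusted p = 0.0284), were among the lower ones. Mpc1, a subunit of the mitochondrial pyruvate carrier, was higher (0.24, SE 0.05). Against quadriceps, 6 of them were higher and 1 lower in heart, beside 31.9% and 31.2% of all genes. Asns (0.91, SE 0.16), Got1 (0.63) and Mpc1 (0.57) were also among the higher ones. Of 8 regulators linked to this metabolism, 5 were higher and 1 lower in WT soleus than in WT quadriceps, beside 21.3% and 24.4% of all genes. They included Esrrg (2.42, SE 0.13), Ppara (1.83, SE 0.10) and Ppargc1a (1.19, SE 0.12), which were higher. Nr3c1, the glucocorticoid receptor, was the lower one (-0.32, SE 0.07). In KO muscles 4 regulators were higher and 1 lower in soleus, beside 21.9% and 20.0% of all genes. The higher ones were Esrrg (2.45), Ppara (1.72), Ppargc1a (0.99) and Ppargc1b (0.32, SE 0.08, adjusted p = 0.00618). Against soleus, 1 regulator was higher and 3 were lower in heart, beside 29.6% and 27.2% of all genes. The lower ones were Atf4, a factor of the amino acid stress response (-0.89, SE 0.09), Esrrg (-0.72) and Nr3c1 (-0.62). The higher one was Ppargc1a (0.58, SE 0.16, adjusted p = 0.00572). Against quadriceps, 4 regulators were higher and 2 lower in heart, beside 31.9% and 31.2% of all genes. They included Ppargc1a (1.77), Esrrg (1.70) and Ppara (1.57), which were higher, and Atf4, which was lower (-0.94). Klf15, a known regulator of branched-chain amino acid breakdown, passed in none of the 8 comparisons.

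Over all 43 genes, 27 were higher and 6 lower in WT soleus than in WT quadriceps, with a median of 0.24 against -0.01 over all genes tested (limma). In KO muscles the counts were 24 and 7, and 30 genes were called in the same direction in both genotypes, of 33 in WT and 31 in KO. Against soleus, heart had 15 higher and 11 lower, with a median of 0.08 against 0.03 over all genes. Against quadriceps it had 27 higher and 6 lower, with a median of 0.43 against 0.03. The shares of all genes called, given above, are the background for these counts.

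**Figure D5:**
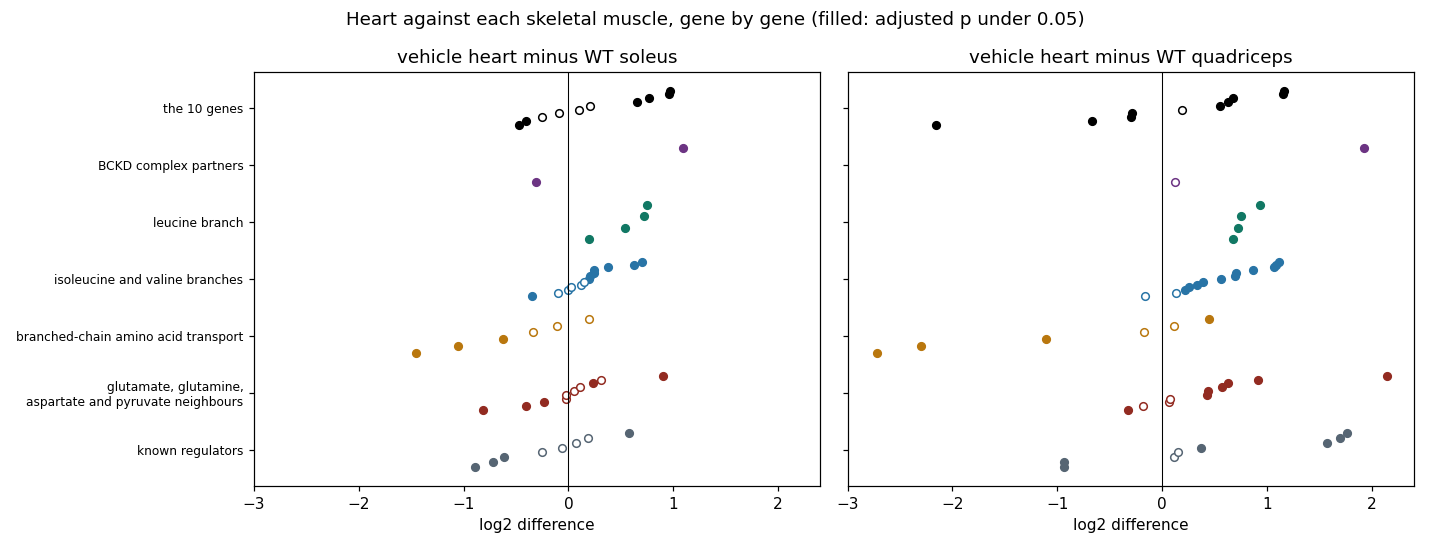
Log2 difference of vehicle heart minus WT soleus (left) and minus WT quadriceps (right) on the horizontal axis, for the 10 genes and for the 6 lists of other pathway genes on the vertical axis; each point is a gene, and filled points passed an adjusted p of 0.05. The leucine branch lies to the right of 0 in both panels, and Slc43a1 reaches -2.72 on the right.

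Across the 18 arrays, the members followed each other mainly by tissue, and the correlations are given as descriptions, over arrays that share 6 groups. Bckdha and Dbt had the highest correlation of the 45 pairs, r = 0.972, and Bcat2 and Glud1 the lowest, r = -0.933. Bckdk had r = -0.924 with Dbt and Gpt r = -0.916 with Gpt2. After the group means were taken away, the highest correlation was r = 0.635 for Bckdhb with Dbt, followed by r = 0.579 for Bckdk with Gpt2, and the pair Bckdha and Dbt was at r = 0.417.

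The genes outside the list whose levels were most like those of a member over 18 arrays are given as a description. For Gpt2 they were Acvr1b (r = 0.992), a receptor of activins, and Tspan8 (r = 0.990), a tetraspanin. For Dbt they were Myh6 (r = 0.987), the atrial and ventricular myosin of the mouse heart, and S100a1 (r = 0.984), a calcium-binding protein of muscle, and for Bckdha Tmx4 and Slc12a7 (both r = 0.987). For Bckdk they were Ints11 and Speg (both r = 0.982), for Bcat2 Rfxank (r = 0.980) and Polr1e (r = 0.972), and for Glud1 Cct4 (r = 0.975) and Psma2 (r = 0.970). For Gpt they were Vamp8 (r = 0.969) and Adk (r = 0.959), for Bckdhb Mterf3 (r = 0.956) and Cflar (r = 0.932), for Bcat1 Zfp469 (r = 0.930) and Plb1 (r = 0.866), and for Glul Hus1 (r = 0.928) and Cox11 (r = 0.925).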

How the data were processed

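RNA of 18 mouse tissue samples was hybridised to Affymetrix whole-transcript arrays. The deposited values are on a log2 scale and were made by the authors with RMA, per the submitters' processing notes; the sources used here do not name its version, nor which arrays were normalized as 1 set. RMA normalizes by quantiles between arrays, so a change shared by all genes would be removed.

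Among 35556 probe sets, 21789 had 1 gene symbol in the annotation, 1621 several and 12146 none listed; 21698 symbols were updated by gene identifier with a GRCm38.p6 table. The brightest probe set stood for each of 19938 genes. The tests covered genes whose mean reached the 40th percentile of the arrays fitted (6.19 in muscle, 6.26 in heart, 6.23 over all), which were 13318, 13431 and 13373 genes. Arrays have no read depth, and their number, 3 per group, limits the precision.

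Tests used limma 3.58.1 in R 4.3.3, with Benjamini-Hochberg adjustment over all tested genes and calls at an adjusted p under 0.05. The muscle fit held 12 arrays in 4 groups with the animal number as a random block (consensus correlation 0.17), the heart fit 6 arrays, and heart against muscle all 18 (0.20). The labels do not state that the numbers are animals. Deviations of the 6 pairs with 1 animal number had r from -0.0005 to 0.377, 4 of them above 0.1. The numbers in the titles did not pair KO with WT arrays (r from -0.285 to 0.0789). The p-values measure the spread between these arrays. The script was tested on simulated data without correlation between arrays of 1 animal number, so that test does not bear on the animal block. No column was left out and no columns were identical.

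The 10 genes, the 6 lists with 47 pathway genes (43 measured) and the marker lists were chosen with earlier results of these data known. The text names all 10 genes; per list and comparison, the up to 4 called genes with the largest difference, or the gene with the largest difference where none was called; the 2 genes most correlated with each member; and Egln1. Slc38a2 and Slc7a5 outside the comparisons that name them, and Slc25a44, Slc3a2, Oat and Klf15, were named after their values were seen. So were Dld, Auh, Mccc1 and Mccc2 where they did not pass. The markers Tnni3, Tnnt2, Myh6, Myl7, Nppa, Actc1, Alas2, Slc4a1 and Vwf were also named after their values were seen. Myh4 was not named by the rules above either. The alternatives were another summary of probe sets, no filter, repeated quantile normalization, a trended and robust prior, array weights, other blocks, fewer arrays, fibre covariates and each array left out; the covariates for the comparisons between muscles and the fast fibre covariate were added after seeing the data.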

Additional observations from a re-analysis of the deposited data

How the results depend on the processing

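No result changed direction with its call. Of the counts of called members, those of the KO, interaction and FG-4497 comparisons were 0 under every alternative run. With the slow fibre mean as a covariate, added after seeing the data, the members called fell from 7 to 0 in both comparisons between muscles, and the genes called from 6089 to 68 in WT and from 5577 to 82 in KO. Gpt2, Glul and Gpt were then estimated at -1.63, -0.68 and 0.63 in WT; the slow fibre means of the muscles do not overlap, and the cause of the lost calls was not tested. Counts of genes called in KO quadriceps, 91, became 42 without the filter, 197 with array weights, 25 with only the arrays compared and 48 with the slow fibre mean. In KO soleus 24 became 62 with array weights and 8 with only the arrays compared. The interaction, 0, became 1 with repeated quantile normalization, 2 with the trended and robust prior and 2 with array weights. In heart with FG-4497, 238 became 147 without the filter and 373 with the trended and robust prior.

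With the number in the titles as a replicate block, the genes called in KO quadriceps were 60 and the members called between WT muscles 6, with Bckdha lost (adjusted p = 0.106); no other call of a member or count of genes changed by over 1.5 times. These numbers did not pair KO with WT arrays, and the heart arrays of 1 number had r from -0.132 to 0.175.

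Leaving out each array in turn gave 10 to 43 genes in KO soleus, 25 to 75 in KO quadriceps, 0 to 4 for the interaction, 136 to 193 in heart with FG-4497, 5202 to 5648 between WT muscles, 4846 to 5167 between KO muscles, 6853 to 7295 for heart against soleus and 7843 to 8227 against quadriceps. Members called were 4 to 6 between WT muscles, 4 to 8 between KO muscles, 6 to 7 for heart against soleus and 8 to 9 against quadriceps. Of the differences of single members under all alternatives, 1171 kept their side of the threshold, 46 lost it and 13 gained it. Apart from the slow fibre covariate, Gpt2, Glul and Gpt kept their calls between muscles under every alternative run. Bcat1 lay close to the filter level of 6.19 in muscle, with quadriceps arrays at 6.08 and 6.13.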
